A study of Mus musculus with 12 samples.

Results

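The comparison described here set the 3 posterior palate libraries of tamoxifen-treated mice against the 3 posterior palate libraries of controls, which are 6 of the 12 RNA-seq libraries of the series. They were taken by their sample titles alone, and all 24391 gene symbols of the count files entered, of which 15958 passed the filter on low counts and were tested. The mice were C57BL/6, and total RNA was taken from palatal shelves of E13.5 embryos after these had been cut into an anterior and a posterior portion. One group had been treated with tamoxifen and the other is called control. The dose, the route, the time of treatment, what the controls received and any allele beyond the strain are not stated in the labels. The labels give 3 per group without saying whether a library held 1 embryo or several, so the p-values speak only to the spread among these libraries, which may be technical. Xist (154 to 446 CPM) and 4 Y-linked genes together (49.3 to 115 CPM) were both found in each of the 6 libraries. CPM (read counts relative to the library total, scaled between libraries by the TMM method) are used throughout, lists of 3 values run in the order of replicates 1, 2 and 3, and where 2 such lists are set against each other the controls come first.

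The palatal shelves grow out on both sides of the tongue, turn to lie above it, and fuse at the midline to form the roof of the mouth. Most of the shelf is mesenchyme that descends from the neural crest, covered by an epithelium that sends it Sonic hedgehog and receives FGF, BMP and Wnt signals in return, and the posterior part forms the soft palate with its muscles. Tamoxifen is a selective oestrogen receptor modulator that also binds enzymes of sterol synthesis, and the series is titled for the cleft palate it induces in mice.

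The libraries carried the transcription factors of the posterior shelf. In control libraries Meox2 stood at 121, 139 and 134 CPM posteriorly against 5.34 to 9.51 CPM in the anterior controls, and Shox2, a marker of the anterior shelf, at 19.8, 16.5 and 19.7 against 304 to 359.7 CPM. The 6 totals lay between 42217556 and 50163320 counts, and every pair of replicates differed by more than counting noise, with a smallest chi-square of 10.3 for each degree of freedom. That value was of tamoxifen replicates 2 and 3. Pairs with tamoxifen replicate 1 had 33.1 and 34.5, and pairs of controls 13.3 to 20.7. Tamoxifen replicate 1 also stood apart in a set of genes. It was the highest of the 6 for 17 of 20 interferon response genes, against 25.8% of all genes tested, with a median ratio of 4.27 to the mean of the other 5. Where a count of 4 or more called members of a gene list moved by over 1.5 times on leaving out 1 library, that library or any other, its value without that library is given beside it, while smaller counts are given with all libraries. The tissue is bulk, so fewer cells of a type and less RNA per cell cannot be told apart.

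Many genes differed between the groups by small amounts. At a Benjamini-Hochberg adjusted p under 0.05, edgeR's quasi-likelihood test called 4625 genes (29.0% of those tested), 2762 higher (17.3%) and 1863 lower (11.7%) under tamoxifen, with a median size of 0.40 on the log2 scale. At least 2-fold, 183 were higher and 102 lower. The 3 and 3 values did not overlap for 48.0% of all genes tested. The leading principal component of the 6 libraries separated the groups. It held 65.7% of their variance and placed the controls at -22.2, -13.0 and -19.6 and the treated libraries at 24.9, 15.5 and 14.4. The second component held 12.3% and set tamoxifen replicate 1 apart from its group. It placed the controls at -2.14, 6.05 and 1.26 and the treated libraries at 13.4, -8.78 and -9.78.

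Long transcripts were higher and short, GC-rich ones lower in the tamoxifen libraries. Over 12684 genes with a mean log2 CPM above 1, the log2 fold change correlated across genes with transcript length (Spearman 0.56) and with GC content (-0.48), where genes are not independent replicates. In the decile of genes with the shortest transcripts (median 1147 bases) 38.7% were called lower and 0.709% higher. In the decile with the longest (median 8533 bases) 1.58% were called lower and 62.3% higher. The pattern was carried by whole libraries. The correlation with length of each library's deviation from the mean of the 6 was -0.49, -0.44 and -0.49 in the controls and 0.39, 0.51 and 0.52 under tamoxifen, and that with GC content was 0.59, 0.085 and 0.45 against -0.65, -0.25 and -0.19. Neither set of values overlapped between the groups, and the exact 2-sided permutation p was 0.1 for each, the smallest that 3 against 3 libraries can give. The trend moved with treatment in all 6 libraries, so a change in transcripts by length and a difference in RNA or library preparation between the groups cannot be told apart. The labels give no RNA quality value. A second fit therefore took each library's trend with length and GC out as an offset. It called 2883 genes (18.1%), 1247 higher (7.81%) and 1636 lower (10.3%), so that the share of higher genes among the calls went from 59.7% to 43.3%. The counts of rises and falls in the gene lists below are to be read against these shares and those of the first fit. In both fits and in the same direction stood 1811 genes, which are 39.2% of the calls of the one and 62.8% of those of the other, and 16 were called in opposite directions. Values after the words trend removed come from that fit, and the gene groups below are read in both.

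**Figure D1:**
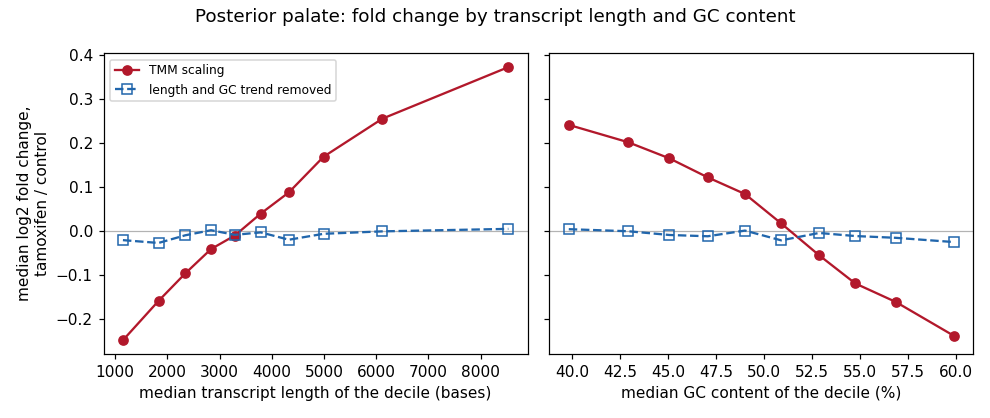
Median log2 fold change of tamoxifen over control in the posterior palate (y axis) in deciles of 12684 genes ordered by transcript length (left, bases) and GC content (right, percent), with TMM scaling (filled circles) and with the length and GC trend removed (open squares). With TMM scaling the medians run from -0.25 in the shortest to 0.37 in the longest decile, and after removal they lie close to zero.

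Among genes with a mean of at least 5 CPM in 1 group, no overlap between the groups and a call in both fits, the 10 largest rises and falls were taken by name. Gdf7, a ligand of the BMP family, had the largest rise after removal of the trend and stood at 7.11, 7.42 and 9.84 CPM in controls and 15.3, 21.5 and 16.9 CPM under tamoxifen (log2 fold change 1.14, SE 0.18, adjusted p = 0.00062), with 1.51 trend removed. Igsf9b, an adhesion molecule of the immunoglobulin family, went from 1.35, 1.55 and 2.36 to 5.57, 5.78 and 5.49 CPM (log2 fold change 1.67, SE 0.37, adjusted p = 0.0053). Olfml2a, a secreted protein with an olfactomedin domain, went from 5.66, 5.20 and 4.56 to 13.3, 12.6 and 14.3 CPM (log2 fold change 1.38, SE 0.21, adjusted p = 0.00054). In all 3 the lowest tamoxifen value lay above the highest control value, as the choice of genes required. Ntn4, a netrin of basement membranes, rose 2.13-fold, and Tenm1, a teneurin that joins neighbouring cells, 2.93-fold. Arfgef3 (3.19-fold), Fam83b (2.54-fold), Klhl11 (2.23-fold), Uprt (2.18-fold) and Zbed6 (2.60-fold) complete these rises, with trend-removed log2 fold changes between 1.05 (Tenm1) and 1.51 (Gdf7). Zbed6 is nested in an intron of its host gene and can share counts with it. With TMM scaling alone the 10 largest rises also held Lnpep (2.73-fold) and Lmbrd2 (2.68-fold), both still called trend removed, and Oasl2 (4.24-fold) and C1qtnf3 (2.62-fold), which were not called there (adjusted p = 0.078 and 0.064). Oasl2, an interferon response gene, owed its size to 1 library: its tamoxifen values were 14.1, 2.83 and 2.65 CPM. The call of Oasl2 was lost without control replicate 1 (0.13), control replicate 2 (0.11), control replicate 3 (0.10) or tamoxifen replicate 1 (0.10), and that of C1qtnf3 without control replicate 2 (0.055), control replicate 3 (0.055), tamoxifen replicate 1 (0.074) or tamoxifen replicate 2 (0.050), where the number in brackets is the adjusted p.

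The largest falls held several RNAs that code for no protein. Kcnq1ot1, the RNA of an imprinted domain, stood at 41.1, 38.8 and 37.2 CPM in controls and 21.5, 14.9 and 16.02 CPM under tamoxifen (log2 fold change -1.16, SE 0.17, adjusted p = 0.00063). Meg3, the maternally expressed RNA of another imprinted domain, went from 763, 594 and 748 to 445, 447 and 465 CPM (log2 fold change -0.63, SE 0.10, adjusted p = 0.00068). The symbol Nrp, which is not that of a neuropilin, went from 3.60, 5.63 and 6.82 to 1.37, 1.83 and 1.41 CPM (log2 fold change -1.80, SE 0.26, adjusted p = 0.00037). No tamoxifen library reached the lowest control library in any of these 3, as the choice of genes required. Their log2 fold changes were -1.75, -1.08 and -1.95 trend removed. Kcnq1ot1 has an annotated length of 93092 bases, far beyond most genes, and is antisense to a coding gene, so its corrected value rests on few genes and its counts may include its partner's. Tgfbr3l (2.33-fold lower), the microRNA gene symbol Mir5125 (2.54-fold), Doc2g (2.04-fold), Hnrnpa1 (1.99-fold) and Spaca6 (1.74-fold) fell in both fits. So did Frat2 (2.01-fold), an activator of Wnt signalling, Ager (1.999-fold) and Rhbdl1 (1.94-fold), which were among the 10 largest falls with TMM scaling only. Hnrnpa1 has pseudogene copies and its counts are uncertain. Bhlhe41, a circadian repressor, fell 1.46-fold, and its call was lost without control replicate 1 (0.095), control replicate 2 (0.060), control replicate 3 (0.096), tamoxifen replicate 1 (0.13) or tamoxifen replicate 2 (0.064).

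Genes of the Hedgehog pathway were called in both directions. Its ligand Shh is made by the palatal epithelium, binds the receptor Ptch1 with the help of the co-receptors Cdon, Boc and Gas1, and acts through Smo on the Gli transcription factors, and Gli1 is transcribed in response to it. Of 17 members 16 were tested, and 4 rose and 4 fell (50% against 29.0% of all genes tested), or 5 and 4 trend removed. Hedgehog rises trend removed numbered 3 without control replicate 1 or 3 or tamoxifen replicate 2. Disp1 had a count of 0 in all 6 libraries. The ligand Shh stood at 11.4, 8.88 and 10.7 CPM in controls and 15.5, 10.1 and 12.2 CPM under tamoxifen. These groups overlapped and gave no call (adjusted p = 0.25). The response gene Gli1 was lower. It stood at 199, 156 and 171 CPM in controls and 109, 124 and 138 CPM under tamoxifen (log2 fold change -0.50, SE 0.10, adjusted p = 0.0029). The forkhead genes Foxl1 and Foxf2, which act in the palatal mesenchyme downstream of Hedgehog, stood at 53.2, 39.96 and 47.8 against 29.7, 31.8 and 31.7 CPM (log2 fold change -0.60, SE 0.12, adjusted p = 0.0031) and at 529.9, 468 and 566 against 289, 409.6 and 418 CPM (log2 fold change -0.48, SE 0.13, adjusted p = 0.011). In each of these 3 genes all 3 tamoxifen libraries lay below all 3 controls, and their log2 fold changes trend removed were -0.40, -0.39 and -0.24, all still called. The co-receptors were higher. Cdon stood at 52.6, 53.7 and 52.8 against 93.5, 93.5 and 80.2 CPM (log2 fold change 0.75, SE 0.083, adjusted p = 0.00022), Boc at 129.7, 124 and 123.3 against 143, 181 and 159 CPM (log2 fold change 0.36, SE 0.087, adjusted p = 0.0075), and Gas1 at 221, 173 and 219.5 against 227, 314 and 261 CPM (log2 fold change 0.39, SE 0.12, adjusted p = 0.030). The tamoxifen values were above all control values in each of the 3, and the trend-removed log2 fold changes were 0.42, 0.37 and 0.58. Gli3, the factor that represses targets when the ligand is absent, stood at 98.7, 107 and 99.6 against 139, 161 and 148 CPM (log2 fold change 0.55, SE 0.076, adjusted p = 0.00034), with 0.20 trend removed (adjusted p = 0.016). Ptch1, the receptor and itself a response gene, had 112, 117 and 113 against 134, 133 and 141 CPM, higher under tamoxifen without overlap. It gave no call (log2 fold change 0.25, SE 0.10, adjusted p = 0.077), with -0.16 trend removed (adjusted p = 0.080). Its annotated transcript of 10383 bases is long. Smo, Gli2, Sufu, Kif7 and Hhip gave no call in either fit, with log2 fold changes between -0.072 (Kif7) and 0.34 (Hhip). Foxf1 was called higher only trend removed (0.21, adjusted p = 0.034), against 0.054 with TMM scaling. Gli1, Foxl1, Cdon, Boc and Gli3 kept their calls with each library left out, while Foxf2 lost its call without control replicate 3 (0.051) and Gas1 without control replicate 2 (0.12), tamoxifen replicate 2 (0.15) or tamoxifen replicate 3 (0.054).

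**Figure D2:**
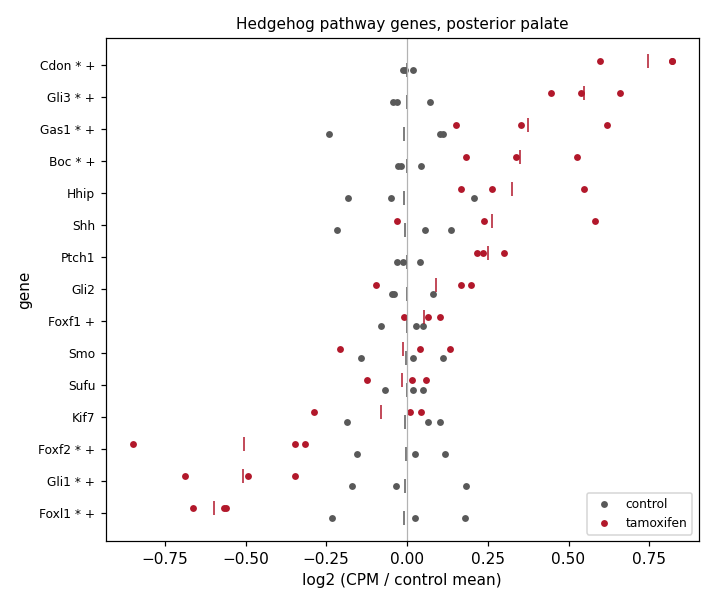
Hedgehog pathway genes (15 of the 16 tested) in the 6 posterior libraries: log2 of the CPM over the mean of the 3 controls (x axis) for each gene (y axis, ordered by log2 fold change), with control libraries in grey, tamoxifen libraries in red and a tick at each group's mean. A star marks an adjusted p under 0.05 and a plus sign the same with the length and GC trend removed. Gli1, Foxl1 and Foxf2 lie to the left and Cdon, Gli3, Gas1, Boc and Ptch1 to the right without overlap, where Ptch1 was not called.

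Receptors of the TGF-beta and activin pathway rose. Of 20 tested members 12 rose and 1 fell, or 8 and 1 trend removed, with a median log2 fold change of 0.24 against 0.022 over all genes, and 0.14 trend removed. TGF-beta ligands drive fusion of the palatal epithelium and growth of the mesenchyme, and activins signal through the type II receptors Acvr2a and Acvr2b with the type I receptor Acvr1b. Acvr2a stood at 23.6, 27.3 and 25.6 CPM in controls and 47.9, 41.6 and 42.1 CPM under tamoxifen (log2 fold change 0.78, SE 0.10, adjusted p = 0.00026), with no overlap, and kept 0.45 trend removed. Acvr2b rose 1.46-fold and Acvr1b 1.43-fold, with 0.65 and 0.48 trend removed, both called. Among the ligands Tgfb2 stood at 103, 101 and 101 against 132, 153 and 133 CPM (log2 fold change 0.45, SE 0.072, adjusted p = 0.00063) and kept its call (0.21 trend removed). Tgfb3, the ligand of the midline epithelium, overlapped at 128, 106 and 109 against 127, 136 and 133 CPM, gave no call with TMM scaling (adjusted p = 0.12) and was called trend removed (0.26, adjusted p = 0.020). Tgfbr1 and Tgfbr2 rose 1.40-fold and 1.31-fold, but their trend-removed log2 fold changes of 0.14 and 0.063 were not called. The inhibitor Skil, a target of the pathway, rose 1.55-fold and stayed called (0.25). The activin subunit gene Inhbb fell from 11.97, 10.6 and 10.2 to 7.58, 6.80 and 8.59 CPM and lost its call without control replicate 1 (0.10), tamoxifen replicate 1 (0.059) or tamoxifen replicate 2 (0.093), whereas Inhba was called lower only trend removed (0.033 against -0.34). TGF-beta and activin rises numbered 7 without control replicate 1 or 3, and trend removed 3 without tamoxifen replicate 2, 4 without control replicate 3 and 5 without control replicate 1 or 2.

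In the BMP pathway 9 of 29 genes rose and 0 fell (7 and 1 trend removed). Rises numbered 4 without tamoxifen replicate 1 and 5 without control replicate 2 or 3, and trend removed 4 without control replicate 2 or 3 or tamoxifen replicate 2 or 3. The receptors Bmpr1a and Bmpr2 rose 1.501-fold and 1.64-fold. Bmpr1a stood at 124, 145 and 136 against 223, 194 and 190.4 CPM and kept its call trend removed (0.24), as did Bmpr2 (0.19). Fst, which binds activin and BMPs, stood at 14.5, 14.2 and 14.3 against 22.9, 20.5 and 20.5 CPM (log2 fold change 0.57, SE 0.093, adjusted p = 0.00071), with 0.48 trend removed. The ligand gene Gdf6 rose 1.59-fold and lost its call without control replicate 2 (0.064), control replicate 3 (0.070) or tamoxifen replicate 1 (0.054). Bmp2 and Bmp4, ligands of the palatal mesenchyme, gave no call (0.17 and -0.15), and Bmp4 had 47.8, 41.5 and 41.9 CPM in controls and 36.6, 40.6 and 41.1 CPM under tamoxifen. Smad5, a mediator, was called lower only trend removed (0.075 against -0.28), and the BMP target Id1 and the antagonist Nog were called higher only there (0.34 and 0.43).

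Several Wnt receptors rose. Of 29 Wnt ligands and receptors 10 rose and 1 fell, or 10 and 0 trend removed, with medians of 0.24 and 0.19. Rises trend removed numbered 3 without tamoxifen replicate 3, 4 without control replicate 1 or tamoxifen replicate 1, 5 without control replicate 3 and 6 without control replicate 2. Ror1, a receptor of Wnt5a, stood at 22.04, 26.2 and 22.9 CPM in controls and 41.1, 47.7 and 45.3 CPM under tamoxifen (log2 fold change 0.92, SE 0.13, adjusted p = 0.00034), and Fzd4 at 27.3, 31.3 and 29.9 against 58.3, 56.6 and 49.01 CPM (log2 fold change 0.89, SE 0.16, adjusted p = 0.0015). Neither overlapped, and both stayed called trend removed (0.64 and 0.56). Fzd3, Fzd6 and Fzd7 rose 1.67-fold, 1.47-fold and 1.23-fold, and were called in both fits. Ror2, the other receptor of Wnt5a, overlapped between the groups (159, 150.2 and 159.8 against 132, 161 and 162 CPM, adjusted p = 0.77). Wnt5a itself stood at 70.02, 68.5 and 64.6 against 73.4, 81.95 and 85.4 CPM (log2 fold change 0.24, SE 0.072, adjusted p = 0.020). This small rise was gone trend removed (-0.10, adjusted p = 0.31), and its call was lost without control replicate 3 (0.093), tamoxifen replicate 2 (0.062) or tamoxifen replicate 3 (0.088). Wnt9b, an epithelial ligand with a role in lip and palate fusion, was near the floor at 0.105, 0.167 and 0.145 against 0.488, 0.340 and 0.535 CPM and was called higher in both fits (log2 fold change 1.70, SE 0.46, adjusted p = 0.012). Its call was lost without control replicate 1 (0.055). Of 20 Wnt antagonists and targets 5 rose and 0 fell (3 and 0 trend removed). Rises numbered 1 without control replicate 1, 2 without control replicate 3 or tamoxifen replicate 1 and 3 without tamoxifen replicate 2 or 3. The secreted antagonist Sfrp1 rose from 245, 228 and 231 to 316, 313 and 308 CPM, 0.31 trend removed, and the target Axin2 was called only trend removed (0.22 and 0.23). Among 15 planar cell polarity genes, which align cells in a sheet, 6 rose and 1 fell, or 3 and 2 trend removed. Vangl2 and Celsr1 rose 1.33-fold and 1.46-fold and were called in both fits, and Scrib fell 1.19-fold (-0.25 trend removed), a call lost without control replicate 1 (0.092), control replicate 3 (0.10) or tamoxifen replicate 1 (0.072).

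Feedback genes of FGF signalling and members of the insulin-like growth factor group rose. In the FGF pathway 8 of 23 genes rose and 0 fell, or 6 and 0 trend removed. Rises numbered 5 without control replicate 1, and trend removed 2 without control replicate 1 and 3 without control replicate 2 or tamoxifen replicate 2. The inhibitors Spred2 and Spry4 stood at 56.9, 50.6 and 56.00 against 72.5, 82.9 and 80.6 CPM (log2 fold change 0.53, SE 0.10, adjusted p = 0.0015) and at 30.8, 29.3 and 29.5 against 37.3, 41.7 and 36.9 CPM (log2 fold change 0.37, SE 0.084, adjusted p = 0.0047), without overlap. Fgf2, a ligand, rose 2.49-fold from a low level of 2.42, 3.18 and 3.27 CPM. All 3 stayed called trend removed (0.43, 0.25 and 0.98). Fgf10, the mesenchymal ligand that keeps Shh expressed in the epithelium, overlapped and gave no call (9.23, 12.3 and 9.91 against 15.3, 11.4 and 12.8 CPM, adjusted p = 0.13). Of 18 PDGF and IGF genes 11 rose and 0 fell, or 7 and 0 trend removed. PDGF and IGF rises trend removed numbered 4 without control replicate 2 or 3 or tamoxifen replicate 3. The binding proteins Igfbp3 and Igfbp5 stood at 388, 371 and 381 against 460.2, 525 and 465 CPM (log2 fold change 0.35, SE 0.083, adjusted p = 0.0066) and at 2315, 2286 and 2205 against 3181, 2952 and 3095 CPM (log2 fold change 0.44, SE 0.091, adjusted p = 0.0029). Igfbp3 was as large trend removed (0.45). Igf1 rose 1.56-fold with TMM scaling and was not called trend removed (0.24, adjusted p = 0.23), and the adaptor gene Irs2 rose 1.37-fold in the first fit and stayed called (0.35). Pdgfra, the receptor of the palatal mesenchyme, rose 1.34-fold and was not called trend removed (0.11). Of 22 Notch pathway genes 6 rose and 1 fell, or 5 and 1 trend removed. Notch rises numbered 0 without control replicate 3, 2 without tamoxifen replicate 1 or 3 and 3 without control replicate 2, and trend removed 2 without control replicate 2 and 3 without control replicate 3 or tamoxifen replicate 1. In the retinoic acid pathway 1 of 18 rose and 1 fell: the receptor gene Rarb went from 10.01, 10.1 and 9.84 to 18.01, 13.9 and 13.3 CPM (log2 fold change 0.60, SE 0.12, adjusted p = 0.0027), 0.55 trend removed, and the binding protein gene Crabp2 fell 1.19-fold, a call lost trend removed (-0.065) and without control replicate 1 (0.062), control replicate 2 (0.051), control replicate 3 (0.066) or tamoxifen replicate 3 (0.061).

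Patterning genes of the posterior shelf showed few changes that held in both fits. Of 12 such genes 3 rose and 1 fell, or 1 (Emx2) and 1 (Mn1) trend removed. Meox2 overlapped at 121, 139 and 134 against 125, 133 and 142 CPM (log2 fold change 0.025, SE 0.15, adjusted p = 0.92). Tbx22, mutated in an X-linked form of cleft palate, stood at 22.8, 29.9 and 25.8 against 36.5, 33.2 and 38.2 CPM without overlap and gave no call (log2 fold change 0.46, SE 0.23, adjusted p = 0.15, and 0.17 trend removed). Barx1, a homeobox gene of the posterior shelf and the molar field, went from 995, 862 and 1080.4 to 635, 801 and 788 CPM (log2 fold change -0.40, SE 0.11, adjusted p = 0.012). Its log2 fold change was -0.041 trend removed (adjusted p = 0.83), and its call was lost without control replicate 3 (0.070). Mn1, a coregulator needed for the posterior palate, overlapped at 571, 503 and 566 against 404, 556 and 517 CPM and was called lower only trend removed (-0.15 and -0.21, adjusted p = 0.28 and 0.018), and tamoxifen replicate 1 was its lowest library. The 3 rises were Col25a1 (1.47-fold), Trps1 (1.35-fold) and Tshz1 (1.20-fold), none of them called trend removed (0.22, -0.041 and 0.14), and Tshz1 lost its call without control replicate 2 (0.053) or tamoxifen replicate 2 (0.075).

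Of 36 regulators of the palatal shelf 8 rose and 3 fell, or 3 and 2 trend removed, near the share of all genes. Rises numbered 5 without control replicate 3 or tamoxifen replicate 2 or 3. The homeobox gene Prrx1 stood at 395, 431 and 386 CPM in controls and 611, 628 and 569 CPM under tamoxifen (log2 fold change 0.58, SE 0.079, adjusted p = 0.00032, 0.22 trend removed), and its relative Prrx2 at 256, 228 and 254 against 141, 186 and 203 CPM (log2 fold change -0.48, SE 0.12, adjusted p = 0.0093, -0.14 trend removed). The 2 moved in opposite directions with TMM scaling, and only the rise of Prrx1 stayed called trend removed (adjusted p = 0.013 and 0.14). Their annotated transcripts are 6527 and 1441 bases long. Twist1, a mesenchymal helix-loop-helix factor, fell from 784, 703 and 804 to 421, 579 and 598 CPM (log2 fold change -0.52, SE 0.12, adjusted p = 0.0044) and stayed called (-0.24, adjusted p = 0.042). Zeb1 and Zeb2, repressors of epithelial genes, rose 1.39-fold and 1.41-fold but were not called trend removed (0.18 and 0.036). Osr2 and Pax9, factors needed for shelf growth, gave no call in either fit (-0.17 and 0.24). Bone-forming genes stayed without a shared direction. Of 15 osteogenic genes 1 rose, Postn (1.23-fold), a call lost trend removed (0.0017) and without control replicate 1 (0.20), control replicate 3 (0.14), tamoxifen replicate 1 (0.13), tamoxifen replicate 2 (0.073) or tamoxifen replicate 3 (0.095). Runx2 overlapped at 140.5, 154 and 137 against 121, 156 and 164 CPM, and Sp7 at 90.95, 82.3 and 63.2 against 34.3, 51.6 and 74.3 CPM, where tamoxifen replicate 1 was lowest (adjusted p = 0.45). Col1a1, the main collagen gene, also had its lowest value in tamoxifen replicate 1 (9359, 8292 and 7353 against 4546, 8270.0 and 9288 CPM, adjusted p = 0.70).

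**Figure D3:**
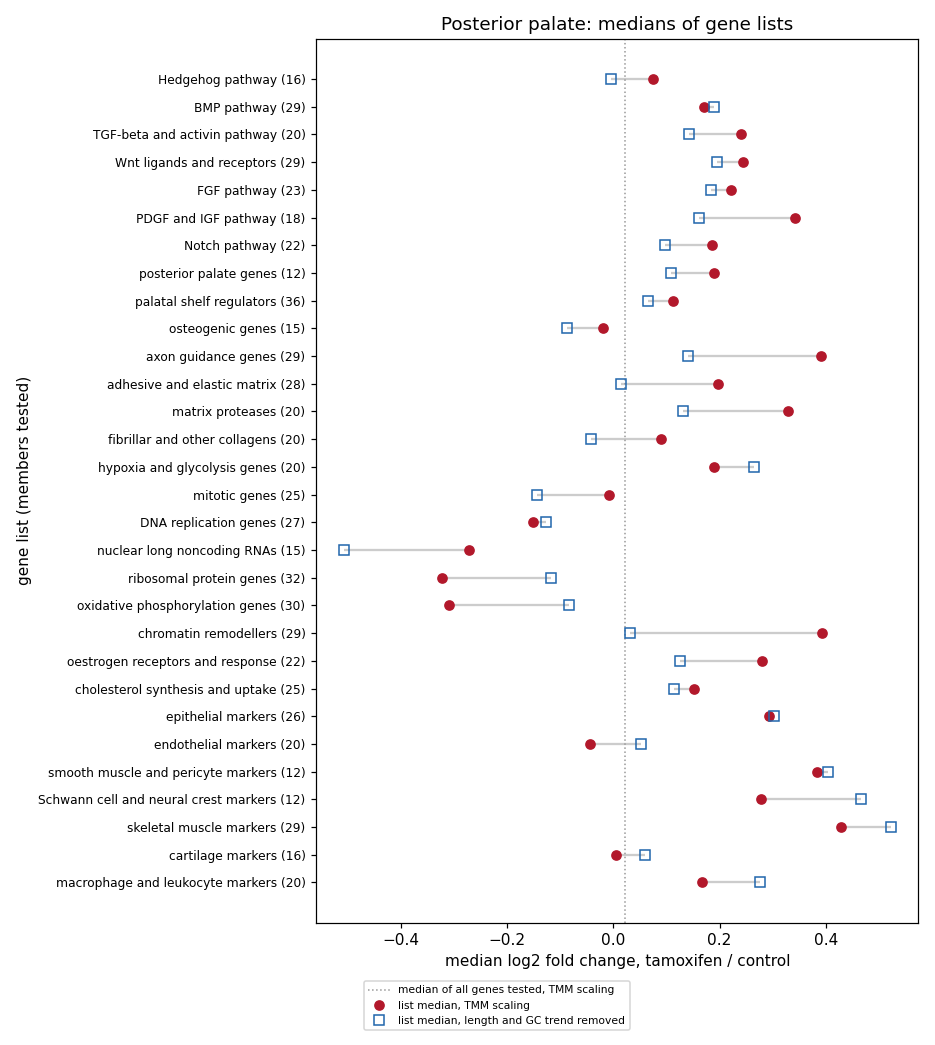
Median log2 fold change of tamoxifen over control (x axis) of the tested members of 30 gene lists (y axis, number tested in brackets) in the posterior palate, with TMM scaling (filled circles) and with the length and GC trend removed (open squares); the dotted line is the median of all genes tested, 0.022. The medians of chromatin remodellers and of axon guidance, ribosomal protein and oxidative phosphorylation genes move towards zero on removal of the trend, whereas those of long noncoding RNAs, epithelial, pericyte and hypoxia genes do not.

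Many axon guidance genes, whose receptors also direct cell movement outside the nervous system, rose. Of 29 members 19 rose and 0 fell, or 10 and 1 trend removed, with medians of 0.39 and 0.14, and 15 to 18 rose with any 1 library left out. Their rises trend removed numbered 6 without control replicate 1 or 3 or tamoxifen replicate 2. The semaphorin receptor gene Plxna2 stood at 44.1, 41.2 and 37.97 CPM in controls and 86.6, 82.2 and 68.2 CPM under tamoxifen (log2 fold change 0.94, SE 0.10, adjusted p = 0.00016), and the netrin receptor gene Unc5c at 17.6, 18.4 and 17.3 against 31.5, 30.98 and 31.01 CPM (log2 fold change 0.81, SE 0.10, adjusted p = 0.00025). Every tamoxifen value exceeded every control value in both. Plxna4 rose 1.80-fold, the ligand gene Slit2 1.70-fold and its receptor gene Robo1 1.49-fold. These 5 genes stayed called trend removed, at 0.56, 0.36, 0.49, 0.32 and 0.26. The median transcript of the list is 6328 bases long, and each of the 5 had a smaller value there than with TMM scaling.

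Several genes that remodel the extracellular matrix rose, and fibrillar collagens did not move together. Of 20 matrix proteases and inhibitors 11 rose and 1 fell, or 7 and 0 trend removed. Protease and inhibitor rises trend removed numbered 2 without control replicate 1 and 4 without control replicate 3. Adamts9, which cleaves versican, stood at 67.9, 75.3 and 75.3 against 112, 114 and 105 CPM (log2 fold change 0.60, SE 0.082, adjusted p = 0.00032), and Adamts1 at 45.4, 52.95 and 52.00 against 73.02, 75.5 and 67.4 CPM (log2 fold change 0.52, SE 0.091, adjusted p = 0.0011). Neither overlapped, and both stayed called (0.28 and 0.35 trend removed). Adam12 (1.56-fold), Adamts17 (1.46-fold), Mmp16 (1.57-fold) and the inhibitor Timp3 (1.35-fold) rose in both fits. Of 28 adhesive and elastic matrix genes 10 rose and 1 fell, or 5 and 1 trend removed. Rises numbered 6 without control replicate 3, and trend removed 0 without control replicate 1, 1 without control replicate 3 or tamoxifen replicate 3 and 2 without tamoxifen replicate 2. The genes that rose included Itga1, a collagen receptor subunit (1.92-fold), Nid1 of the basement membrane (1.42-fold) and Thbs1 (1.42-fold), all called in both fits. Among 22 hyaluronan and proteoglycan genes 6 rose and 0 fell (4 and 0 trend removed), with the glypicans Gpc6 and Gpc4 at 1.43-fold and 1.29-fold, and 0.34 and 0.41 trend removed. Proteoglycan list rises trend removed numbered 2 without control replicate 2 or tamoxifen replicate 1 or 2. Of 20 collagens 3 rose and 0 fell, or 1 and 1 trend removed: Col4a5 rose 1.42-fold, and Col6a2 was called lower only trend removed (-0.32 and -0.37).

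Genes with short transcripts of the translation and respiration machinery fell, and those of chromatin rose, and in these lists the trend took most of the change. Of 32 ribosomal protein genes 24 fell and 0 rose, with a median of -0.32, and 12 fell and 0 rose trend removed, with a median of -0.12. Rps19 stood at 814, 790.4 and 786 CPM in controls and 569, 654 and 619 CPM under tamoxifen (log2 fold change -0.38, SE 0.086, adjusted p = 0.0051) and kept -0.35 trend removed, whereas Rpl19 at 715, 678 and 700.2 against 539, 533 and 541 CPM went from -0.38 to -0.056 (adjusted p = 0.46). With TMM scaling neither overlapped. Ribosomal falls numbered 14 without control replicate 1 and 15 without control replicate 3, and trend removed 4 without control replicate 3, 5 without tamoxifen replicate 1, 6 without control replicate 1 or tamoxifen replicate 3 and 7 without tamoxifen replicate 2. Ribosomal protein genes have many pseudogenes, which can take or add counts. In oxidative phosphorylation 20 of 30 genes fell and 0 rose (median -0.31), or 8 and 1 trend removed (median -0.084). Falls numbered 13 without control replicate 1, and trend removed 4 without control replicate 1 or 3 or tamoxifen replicate 1 or 3 and 5 without control replicate 2. Atp5e, a subunit of ATP synthase, and Ndufb7, of complex I, fell in both fits (-0.48 and -0.39, and -0.40 and -0.42 trend removed). Of 29 chromatin remodellers, whose median transcript is 9566 bases, 23 rose and 0 fell, or 3 and 2 trend removed, and their median went from 0.39 to 0.032. Chd9, Kmt2c and the acetyltransferase gene Ep300 were those called higher in both, and Chd9 stood at 50.1, 54.8 and 52.04 against 96.9, 87.99 and 87.03 CPM (log2 fold change 0.79, SE 0.11, adjusted p = 0.00037, 0.31 trend removed).

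Several long noncoding RNAs fell, and their median was lower with the trend removed. Of 15 members 6 fell and 1 rose, and 9 fell and 0 rose trend removed, with medians of -0.27 and -0.51. The median transcript of the list is 6719 bases long, and the removal lowers the values of long transcripts in general. Among all genes in the quartile with the longest transcripts (median 6536 bases), the median log2 fold change went from 0.29 to -0.0012. The lower list median and the added calls trend removed are to be read against that shift. The counts of falls in the list were the same without tamoxifen replicate 1. These RNAs include regulators of imprinted domains and hosts of small nucleolar RNAs, and many stay in the nucleus. Snhg1 and Gas5, both hosts of small nucleolar RNAs, stood at 49.3, 59.02 and 55.8 against 37.3, 34.9 and 33.3 CPM (log2 fold change -0.64, SE 0.078, adjusted p = 0.00024) and at 183, 201 and 186 against 144, 139.9 and 146 CPM (log2 fold change -0.41, SE 0.085, adjusted p = 0.0032). Miat went from 75.03, 63.3 and 75.6 to 46.6, 42.8 and 52.2 CPM (log2 fold change -0.60, SE 0.15, adjusted p = 0.0091). The groups were apart in all 3, and their trend-removed values were -0.73, -0.48 and -0.81. Snhg12 also fell (-0.51), and lost its call without control replicate 2 (0.067) or tamoxifen replicate 2 (0.073). Malat1, Neat1 and Rian were called lower only trend removed (-1.004, -0.79 and -0.47, against -0.61, -0.27 and -0.041). Malat1 stood at 387, 385 and 442 CPM in controls and 337, 221 and 238 CPM under tamoxifen, with tamoxifen replicate 1 the highest of its group. H19 gave no call in either fit (8070.2, 7495 and 7684 against 7013, 7626 and 7293 CPM), and Tug1 was the 1 rise (0.25), turned to -0.13 trend removed (adjusted p = 0.070) and lost without control replicate 1 (0.15), control replicate 3 (0.14), tamoxifen replicate 1 (0.25) or tamoxifen replicate 2 (0.081).

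More genes of mitosis and of DNA replication were called lower than higher. Of 25 mitotic genes 3 rose and 8 fell, and 0 rose and 9 fell trend removed, with medians of -0.0086 and -0.14, and Cdk1, Ccnb2, Birc5, Cdc20 and Cenpa fell in both fits. Cdk1 lost its call without control replicate 1 (0.062), control replicate 2 (0.071), control replicate 3 (0.11), tamoxifen replicate 2 (0.099) or tamoxifen replicate 3 (0.13). Birc5, which encodes survivin, stood at 80.8, 75.6 and 79.98 CPM in controls and 62.2, 59.4 and 57.5 CPM under tamoxifen (log2 fold change -0.40, SE 0.070, adjusted p = 0.0011), and the centromere histone gene Cenpa at 86.96, 88.00 and 92.6 against 67.8, 67.9 and 64.3 CPM (log2 fold change -0.42, SE 0.076, adjusted p = 0.0013). The controls were above the tamoxifen libraries in both, and the values trend removed were -0.47 and -0.51. Cdc20 and Ccnb2 fell 1.30-fold and 1.22-fold and stayed called. The proliferation marker Mki67 had 306, 328 and 302 against 344, 362 and 334 CPM and a log2 fold change of 0.15 (adjusted p = 0.19) that became -0.28 trend removed (adjusted p = 0.0034), and Top2a went from 0.078 to -0.21 (adjusted p = 0.0089). The direction for Mki67 and Top2a thus depended on the removal. In DNA replication 1 of 27 genes rose and 7 fell, or 0 and 7 trend removed, with medians of -0.15 and -0.13. Mcm5, of the replicative helicase, stood at 271, 282 and 284 against 208, 242 and 232 CPM (log2 fold change -0.30, SE 0.070, adjusted p = 0.0064), and Lig1 at 222, 219 and 230.4 against 177, 188 and 189 CPM (log2 fold change -0.28, SE 0.066, adjusted p = 0.0060), both without overlap and called trend removed (-0.27 and -0.20). The rise was that of Pola1 (1.39-fold), not called trend removed (0.17). Mitotic falls numbered 5 without control replicate 3 or tamoxifen replicate 3, and trend removed 5 without control replicate 3. Replication falls numbered 2 without control replicate 1, 3 without control replicate 3 and 4 without tamoxifen replicate 1, and trend removed 3 without control replicate 3 or tamoxifen replicate 1 and 4 without control replicate 2. Of 14 tested G1 regulators 4 rose and 3 fell, or 5 and 0 trend removed: Cdk6 rose 1.95-fold and Rb1 1.73-fold, with 0.50 and 0.53 trend removed, and the inhibitor Cdkn1a was called higher only there (0.28 and 0.45).

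Of the hypoxia and glycolysis list 4 genes rose in both fits, none of them a glycolytic enzyme. HIF1, a dimer whose alpha subunit is encoded by Hif1a, binds a short element with the core ACGTG when oxygen is low and induces glucose uptake and glycolysis, while Egln3 is a prolyl hydroxylase that marks HIF subunits for degradation and is itself induced. Of 20 tested members 7 rose and 0 fell, and 9 rose and 0 fell trend removed, against 17.3% and 7.81% of all genes called higher. The median log2 fold change was 0.19, and 0.27 trend removed. Egln3 stood at 11.5, 12.1 and 13.7 CPM in controls and 20.3, 17.3 and 20.1 CPM under tamoxifen (log2 fold change 0.63, SE 0.11, adjusted p = 0.0013), and Hif1a at 97.5, 111 and 102 against 162, 154 and 144 CPM (log2 fold change 0.57, SE 0.089, adjusted p = 0.00059). No value overlapped in either gene. Bnip3, a mitophagy receptor, had 20.95, 24.6 and 23.7 against 37.7, 25.6 and 39.3 CPM (log2 fold change 0.57, SE 0.13, adjusted p = 0.0060), and Slc2a1, the glucose transporter, 111, 117 and 116 against 148, 125 and 201 CPM (log2 fold change 0.46, SE 0.13, adjusted p = 0.020). In both, the groups did not overlap, but tamoxifen replicate 2 lay just above the highest control. These 4 genes stayed called trend removed at 0.69, 0.30, 0.53 and 0.54. Pdk1, Hk2 and Pfkp rose 1.38-fold, 1.33-fold and 1.31-fold with TMM scaling only, and the enzymes Hk1, Ldha, Pgk1, Pgam1 and Aldoa were called trend removed only (of these, Ldha at 0.34, Pgk1 at 0.29, Pgam1 at 0.36 and Aldoa at 0.39). Other targets of the same factor gave no call: Vegfa had 108, 108 and 127 against 103, 117 and 134 CPM, Car9 2.02, 1.98 and 2.24 against 2.11, 1.13 and 1.85 CPM, and Adm 1.11, 1.10 and 1.06 against 0.977, 0.574 and 1.54 CPM, with adjusted p of 0.79, 0.37 and 0.92. Slc2a1 lost its call without control replicate 1 (0.072), control replicate 3 (0.056) or tamoxifen replicate 3 (0.093), and Pfkp without control replicate 1 (0.16), control replicate 3 (0.13), tamoxifen replicate 1 (0.21) or tamoxifen replicate 3 (0.13). The list held 5 to 9 rises with any 1 library left out, 6 of them without tamoxifen replicate 1, and 6 to 13 trend removed.

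The promoters of 3 of the genes that rose carry that core, and their 250 bases upstream of the start (RefSeq, build GRCm38.p6) are shown to place it, with each ACGTG or its reverse complement CACGT in capitals.
Slc2a1 (chr4:119108495-119108744, plus strand): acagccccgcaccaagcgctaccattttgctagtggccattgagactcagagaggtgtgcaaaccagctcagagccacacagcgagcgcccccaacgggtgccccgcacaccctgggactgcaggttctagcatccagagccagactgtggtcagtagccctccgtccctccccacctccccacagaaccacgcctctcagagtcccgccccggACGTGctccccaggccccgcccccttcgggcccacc
Bnip3 (chr7:138909507-138909756, minus strand): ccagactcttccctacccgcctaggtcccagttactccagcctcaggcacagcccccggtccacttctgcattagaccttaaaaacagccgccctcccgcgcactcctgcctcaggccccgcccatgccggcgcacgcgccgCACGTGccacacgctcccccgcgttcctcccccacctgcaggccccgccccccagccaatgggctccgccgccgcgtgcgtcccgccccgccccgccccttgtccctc
Egln3 (chr12:54203875-54204124, minus strand): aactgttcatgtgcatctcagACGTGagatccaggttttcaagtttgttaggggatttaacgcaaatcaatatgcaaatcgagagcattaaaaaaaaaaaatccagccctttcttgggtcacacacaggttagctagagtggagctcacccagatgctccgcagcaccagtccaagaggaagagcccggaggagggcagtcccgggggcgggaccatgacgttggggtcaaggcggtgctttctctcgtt
In Bnip3 both strands match and overlap in the palindrome CACGTG. Searched on both strands, the core was found in this window for 14 of 21 genes of the list (66.7%) and for 18.5% of 27025 genes with a promoter in the table. This share describes the list, called or not, and includes Vegfa and Car9, which gave no call. A match shows only that the letters are present, and no binding was measured.

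**Figure D4:**
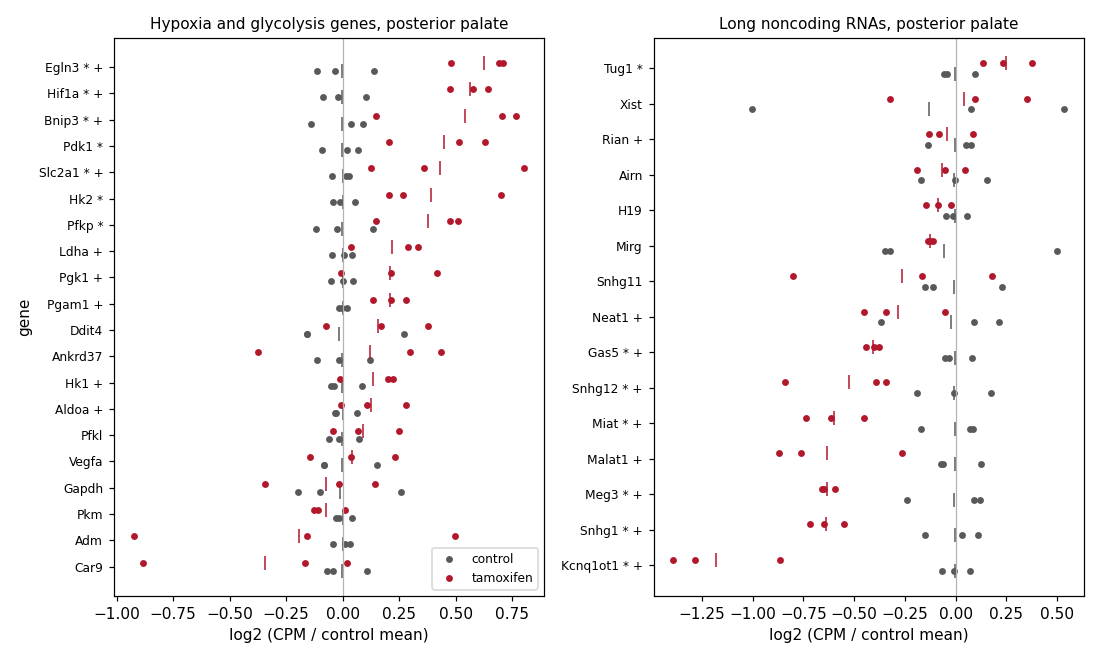
Hypoxia and glycolysis genes (left) and long noncoding RNAs (right) in the 6 posterior libraries: log2 of the CPM over the control mean (x axis) for each gene (y axis, ordered by log2 fold change), with controls in grey, tamoxifen in red and a tick at each group's mean. A star marks an adjusted p under 0.05 and a plus sign the same with the length and GC trend removed. Egln3 and Hif1a lie to the right of all controls and Kcnq1ot1, Snhg1 and Meg3 to the left.

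Interferon response genes were high in 1 tamoxifen library. Type I interferons act through an element of repeated GAAA letters, and their targets, such as Ifit1, Isg15 and Usp18, restrain viruses. Of 20 members 4 rose and 0 fell, 0 were called trend removed, and 0 were called in either fit without tamoxifen replicate 1. Interferon rises numbered 0 without tamoxifen replicate 1, 1 without control replicate 1 or 3 and 2 without control replicate 2. The median log2 fold change was 0.94 with that library and 0.13 without it. Isg15 stood at 0.400, 0.239 and 0.187 CPM in controls and 5.14, 0.340 and 0.268 CPM under tamoxifen, Ifit1 at 0.168, 0.0955 and 0.166 against 5.43, 0.319 and 0.134 CPM, and Usp18 at 0.778, 0.597 and 0.767 against 8.30, 0.595 and 0.759 CPM. In each, replicate 1 of the tamoxifen group was far above the other 5 libraries, which overlapped, and no call was made (adjusted p = 0.14, 0.098 and 0.16). Bst2 had 8.69, 6.25 and 6.40 against 34.8, 8.65 and 7.30 CPM, with the same library on top. The 4 called genes were Ifit2, Ddx58, Mx1 and Oasl2. Ifit2 stood at 12.1, 11.9 and 12.1 against 18.3, 15.97 and 14.3 CPM (log2 fold change 0.43, SE 0.11, adjusted p = 0.010) and Ddx58 at 7.95, 8.98 and 7.98 against 18.9, 9.99 and 11.5 CPM (log2 fold change 0.70, SE 0.22, adjusted p = 0.031), without overlap but with replicate 1 highest. Without tamoxifen replicate 1 their log2 fold changes were 0.31 and 0.34 (adjusted p = 0.074 and 0.22). Ddx58 also lost its call without control replicate 1 or control replicate 3, and Mx1 without control replicate 1 (0.086), control replicate 2 (0.095), control replicate 3 (0.085) or tamoxifen replicate 1 (0.24). The library of the anterior shelf that carries the same replicate number showed the same set: tamoxifen replicate 1 of the anterior group was the highest of 6 for 16 of the 20 genes, with a median ratio of 2.63 to the mean of the other 5, and Usp18 stood there at 5.74, 1.14 and 1.22 CPM against 1.04, 0.895 and 0.843 CPM in its controls. Both files also bear the number 1 in their headers, and the labels do not say whether equal numbers mean the same embryo.

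Promoters of 3 of these genes are printed in the same way, with the interferon-stimulated response element GAAANNGAAA, or its reverse complement, in capitals.
Isg15 (chr4:156200819-156201068, minus strand): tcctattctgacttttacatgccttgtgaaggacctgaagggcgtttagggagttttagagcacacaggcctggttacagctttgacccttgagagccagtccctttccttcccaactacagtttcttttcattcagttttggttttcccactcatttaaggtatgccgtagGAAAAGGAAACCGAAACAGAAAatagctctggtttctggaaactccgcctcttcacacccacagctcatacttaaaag
Ifit1 (chr19:34640639-34640888, plus strand): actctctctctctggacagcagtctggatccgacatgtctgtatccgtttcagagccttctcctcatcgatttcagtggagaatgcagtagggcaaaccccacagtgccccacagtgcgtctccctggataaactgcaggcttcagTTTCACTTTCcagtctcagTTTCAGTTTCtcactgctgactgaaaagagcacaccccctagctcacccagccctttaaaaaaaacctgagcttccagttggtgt
Bst2 (chr8:71537473-71537722, minus strand): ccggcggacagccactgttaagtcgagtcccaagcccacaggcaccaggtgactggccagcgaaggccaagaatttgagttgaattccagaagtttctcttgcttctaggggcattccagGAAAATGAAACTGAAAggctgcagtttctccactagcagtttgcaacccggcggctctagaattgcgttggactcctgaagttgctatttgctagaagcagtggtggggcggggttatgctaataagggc
The matches overlap in Isg15 (3 of them) and in Bst2 (2 of them), and Ifit1 holds 2 apart. The element was found, searching both strands, in 8 of 16 interferon genes with a promoter in the table (50%) and in 3.46% of all 27025 genes. Here too the share describes the list, called or not, and includes Isg15, Ifit1 and Bst2, which gave no call. In the list as a whole, Psmb8, Psmb9 and Irf1 were the 3 genes whose highest posterior value was not in tamoxifen replicate 1 but in a control.

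**Figure D5:**
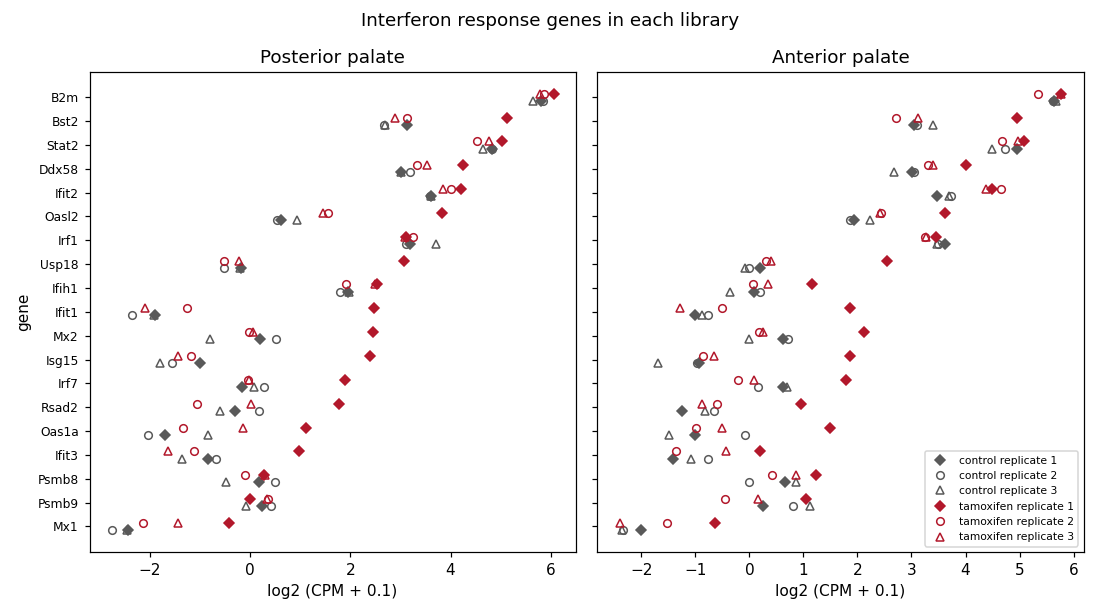
CPM of 19 of the 20 interferon response genes (y axis, ordered by the value in posterior tamoxifen replicate 1) in each library of the posterior (left) and anterior palate (right), as log2 of CPM plus 0.1 (x axis), with controls in grey and tamoxifen in red and a symbol for each replicate number. The filled red diamonds, tamoxifen replicate 1, lie to the right of all other symbols for 16 genes posteriorly and 15 anteriorly.

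The oestrogen receptors themselves were scarce. Esr1 was too low to be tested, at 0.252, 0.0955 and 0.0829 CPM in controls and 0.195, 0.149 and 0.134 CPM under tamoxifen, Esr2 stood at 0.526, 0.430 and 0.705 against 0.684, 0.595 and 0.0892 CPM (adjusted p = 0.73), and Pgr, a classic target, at 0.0421, 0.286 and 0.228 against 0.273, 0.510 and 0.290 CPM (adjusted p = 0.17). Neither Esr2 nor Pgr gave a call. Greb1, an oestrogen target in other tissues, stood at 13.3, 14.9 and 15.4 against 15.8, 19.3 and 18.5 CPM without overlap and missed the threshold (log2 fold change 0.30, SE 0.11, adjusted p = 0.051, 0.063 trend removed). Of 22 tested members of the oestrogen list 8 rose and 0 fell, or 5 and 0 trend removed. Oestrogen list rises numbered 4 without control replicate 2 or 3 and 5 without tamoxifen replicate 1 or 2, and trend removed 2 without control replicate 3 or tamoxifen replicate 2 or 3 and 3 without control replicate 1 or 2 or tamoxifen replicate 1. The members that rose were the cofactors of nuclear receptors Nrip1, Ncoa1, Ncoa2, Ncoa3 and Ncor1, the orphan receptors Esrrb and Esrrg, and the chemokine gene Cxcl12. Nrip1, a corepressor, had 15.4, 26.2 and 23.3 against 40.6, 48.1 and 41.7 CPM (log2 fold change 1.01, SE 0.20, adjusted p = 0.0040, 0.61 trend removed), and the coactivator gene Ncoa2 71.7, 74.7 and 72.2 against 119, 123.4 and 116 CPM (log2 fold change 0.71, SE 0.092, adjusted p = 0.00026, 0.35 trend removed). Neither overlapped, and both calls held with each library left out. Ncoa1 rose 1.34-fold and was not called trend removed (0.11). Ncoa3 lost its call with each of the 6 libraries left out in turn, Esrrb without control replicate 2 (0.097), control replicate 3 (0.13), tamoxifen replicate 1 (0.075), tamoxifen replicate 2 (0.090) or tamoxifen replicate 3 (0.053), Esrrg without control replicate 2 (0.065), control replicate 3 (0.084) or tamoxifen replicate 1 (0.079), and Cxcl12 without control replicate 1 (0.098), control replicate 2 (0.13), control replicate 3 (0.096), tamoxifen replicate 1 (0.26) or tamoxifen replicate 2 (0.081). Of 22 tested genes of the xenobiotic response 4 rose and 0 fell (2 and 0 trend removed). Rises numbered 1 without control replicate 3. Ahr, the receptor of dioxin-like compounds, stood at 46.5, 53.8 and 45.5 against 66.7, 70.7 and 75.4 CPM (log2 fold change 0.55, SE 0.11, adjusted p = 0.0027) and was not called trend removed (0.27, adjusted p = 0.088). Nfe2l2, the regulator of antioxidant genes, rose 1.27-fold in the first fit and stayed called (0.32), a call lost without control replicate 3 (0.061).

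Few genes of cholesterol synthesis and uptake were called in both fits. Of 25 tested members 7 rose and 2 fell, against 17.3% and 11.7% of all genes tested, and trend removed 2 rose and 0 fell, which is near the 7.81% of all genes called higher there. Rises numbered 2 without control replicate 1 or tamoxifen replicate 1. Stard4, a sterol carrier, stood at 19.5, 25.2 and 23.6 CPM in controls and 35.3, 31.2 and 29.4 CPM under tamoxifen (log2 fold change 0.49, SE 0.11, adjusted p = 0.0043, 0.21 trend removed, adjusted p = 0.061). The groups did not overlap. Idi1 and Nsdhl were the 2 called in both fits (0.39 and 0.32, 0.28 and 0.30 trend removed), and Idi1 lost its call without control replicate 1 (0.12) or tamoxifen replicate 1 (0.14), and Nsdhl without control replicate 1 (0.19), control replicate 3 (0.13) or tamoxifen replicate 1 (0.26). Pmvk and Mvk, of the mevalonate steps, fell with TMM scaling (-0.37 and -0.35) and not trend removed (-0.068 and -0.15), and Mvk lost its call without control replicate 1 (0.064), control replicate 3 (0.090), tamoxifen replicate 1 (0.062) or tamoxifen replicate 3 (0.054).

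Several markers of vessel walls and of Schwann cells rose in both fits. Pericytes wrap small vessels, and Schwann cell precursors follow the nerves into the shelf. Of 12 smooth muscle and pericyte markers 4 rose and 0 fell, or 5 and 0 trend removed. Smooth muscle and pericyte rises trend removed numbered 3 without control replicate 1 or tamoxifen replicate 1. Their summed level was 936 to 964 CPM in controls and 964 to 1142 CPM under tamoxifen. Rgs5 stood at 5.13, 6.40 and 5.93 against 14.4, 11.9 and 9.44 CPM (log2 fold change 1.03, SE 0.16, adjusted p = 0.00056), Abcc9 at 6.10, 6.14 and 5.35 against 18.3, 11.6 and 10.1 CPM (log2 fold change 1.19, SE 0.19, adjusted p = 0.00060) and Kcnj8, which forms a potassium channel with Abcc9, at 1.56, 1.29 and 0.974 against 4.57, 2.62 and 2.61 CPM (log2 fold change 1.36, SE 0.25, adjusted p = 0.0016). In all 3 the tamoxifen libraries were higher without overlap, replicate 1 highest, and the calls held trend removed (0.82, 0.82 and 1.49) and with each library left out. The fourth, Acta2, lost its call trend removed and without control replicate 1 (0.092), control replicate 2 (0.093), control replicate 3 (0.070), tamoxifen replicate 1 (0.13) or tamoxifen replicate 2 (0.12). Of 12 Schwann cell and neural crest markers 4 rose and 0 fell, or 5 and 0 trend removed. Rises numbered 2 without tamoxifen replicate 1, and trend removed 3 without control replicate 1 or tamoxifen replicate 1. The neuregulin receptor gene Erbb3 stood at 27.5, 29.9 and 32.4 against 58.2, 54.4 and 54.7 CPM (log2 fold change 0.90, SE 0.14, adjusted p = 0.00070, 0.69 trend removed), and the myelin gene Mbp at 7.47, 7.88 and 8.77 against 13.7, 11.1 and 12.2 CPM (log2 fold change 0.61, SE 0.14, adjusted p = 0.0053, 0.48 trend removed). Sox10, the defining factor of these cells, had 26.9, 22.3 and 23.2 against 28.5, 29.2 and 29.2 CPM (log2 fold change 0.26, SE 0.085, adjusted p = 0.030, 0.52 trend removed) and lost its call without control replicate 2 (0.11), control replicate 3 (0.11), tamoxifen replicate 1 (0.085), tamoxifen replicate 2 (0.075) or tamoxifen replicate 3 (0.073). The summed level of the list overlapped, at 358 to 391 and 356 to 402 CPM.

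Several epithelial markers rose, in numbers that depended on single libraries. Of 26 members 10 rose and 0 fell, or 7 and 0 trend removed. Rises numbered 4 without tamoxifen replicate 1, 5 without control replicate 1 or 2 and 6 without tamoxifen replicate 3, and trend removed 2 without control replicate 1, 3 without control replicate 2 or tamoxifen replicate 1 or 3 and 15 without tamoxifen replicate 2. Their sum was 1295 to 1438 CPM in controls and 1435 to 1821 CPM under tamoxifen, with 1 member under 1 CPM in all 6 libraries. The desmosomal gene Dsg2 stood at 8.75, 11.1 and 13.1 against 22.7, 16.2 and 23.1 CPM (log2 fold change 0.91, SE 0.16, adjusted p = 0.0013, 0.63 trend removed) and Trp63, the defining factor of basal cells, at 25.3, 27.1 and 30.7 against 45.6, 35.6 and 45.5 CPM (log2 fold change 0.61, SE 0.11, adjusted p = 0.0015, 0.31 trend removed). Tamoxifen replicate 2 was the lowest of its group in both, as in Bnip3 and Slc2a1. Wnt9b, which is expressed in the epithelium, moved with these markers, and their part in its values was not tested. Of 20 endothelial markers 7 rose and 2 fell, or 5 and 1 trend removed. Endothelial rises trend removed numbered 3 without control replicate 3. Erg, a factor of endothelial cells, rose from 33.00, 29.1 and 33.3 to 44.9, 39.6 and 42.7 CPM (log2 fold change 0.42, SE 0.079, adjusted p = 0.0018, 0.42 trend removed) and the junction gene Cdh5 from 157, 159.9 and 145 to 184, 199 and 205 CPM (log2 fold change 0.35, SE 0.075, adjusted p = 0.0039, 0.32 trend removed). The 2 falls, Cldn5 and Egfl7, were not called trend removed (-0.32 and -0.30, then 0.0047 and -0.053), and Cldn5 lost its call without control replicate 1 (0.16), control replicate 3 (0.090), tamoxifen replicate 1 (0.11) or tamoxifen replicate 2 (0.069), and Egfl7 without control replicate 1 (0.24), control replicate 3 (0.073), tamoxifen replicate 1 (0.066), tamoxifen replicate 2 (0.15) or tamoxifen replicate 3 (0.052). Skeletal muscle markers, of the soft palate's future muscles, had 6 rises and 0 falls among 29, or 6 and 0 trend removed. Muscle rises numbered 1 without tamoxifen replicate 2 and 2 without control replicate 2 or 3 or tamoxifen replicate 1, and trend removed 1 without control replicate 3 or tamoxifen replicate 1 or 2, 2 without control replicate 2 and 3 without control replicate 1. Myog, Myl4 and Chrnd were those called in both fits, and Myog lost its call without control replicate 1 (0.10), control replicate 2 (0.092), control replicate 3 (0.11), tamoxifen replicate 1 (0.15) or tamoxifen replicate 2 (0.16), and Myl4 without control replicate 2 (0.053), control replicate 3 (0.064), tamoxifen replicate 1 (0.081) or tamoxifen replicate 2 (0.086). The sum of the list was 1042 to 1204 CPM in controls and 1279 to 1751 CPM under tamoxifen. Neb, a giant protein of the thin filament, stood at 23.1, 20.2 and 18.4 against 39.7, 43.5 and 33.04 CPM (log2 fold change 0.91, SE 0.21, adjusted p = 0.0066) and fell out of the calls trend removed (0.39). Chrnd, a subunit of the acetylcholine receptor, had 3.16, 2.94 and 3.40 against 5.70, 7.80 and 4.04 CPM (log2 fold change 0.89, SE 0.23, adjusted p = 0.011, 1.02 trend removed), a call lost without tamoxifen replicate 2 (0.078). Of 16 cartilage markers 3 rose with TMM scaling and 0 were called trend removed. Of 20 leukocyte markers 3 rose and 0 fell, or 4 and 0 trend removed, with no gene in common, and 0 and 1 rose without tamoxifen replicate 1. Leukocyte rises trend removed numbered 1 without tamoxifen replicate 1 and 2 without control replicate 1, 2 or 3 or tamoxifen replicate 3. Their summed level was 115 to 124 CPM in controls and 125 to 150 CPM under tamoxifen. Of 19 tested neuronal markers 4 rose and 1 fell (1 and 1 trend removed), with Dcx from 13.8, 14.99 and 13.3 to 30.1, 24.4 and 19.3 CPM (0.35 trend removed). Neuronal rises numbered 2 without tamoxifen replicate 1, and trend removed the falls numbered 0 with any 1 library left out. No erythroid marker of 10 tested was called.

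The response of the posterior shelf was set against that of the anterior shelf, where 49.7% of the genes were called. Of the 4625 posterior calls 4154 (89.8%) were called in the same direction anteriorly, which is 52.4% of the 7924 anterior calls, and 15 were called in opposite directions. Trend removed, 2287 genes were shared in direction, 79.3% of the posterior and 44.0% of the anterior calls, and 8 were opposite. The test of the difference itself, an interaction term, called 0 genes (0%) with edgeR, and the smallest adjusted p was 0.081. At an unadjusted p under 0.05 stood 2110 genes, which are 13.2% of those tested. The absence of calls therefore does not show that the parts responded alike. limma-voom called 0 and DESeq2 179. The 3 genes with the smallest p for a more positive effect in the posterior shelf were Cthrc1, Foxc2 and Naaa. Cthrc1, a secreted protein, had 54.9, 60.5 and 63.03 against 71.8, 68.8 and 69.3 CPM posteriorly (log2 fold change 0.23, SE 0.075, adjusted p = 0.028) and 19.7, 19.3 and 18.1 against 13.6, 13.4 and 14.99 CPM anteriorly (log2 fold change -0.45, SE 0.079, adjusted p = 0.00025), and the difference was 0.68 (SE 0.11, adjusted p = 0.081). It rose in one part and fell in the other, though its posterior call was lost without control replicate 1 (0.13), control replicate 2 (0.051), tamoxifen replicate 1 (0.14), tamoxifen replicate 2 (0.057) or tamoxifen replicate 3 (0.059). Foxc2, a forkhead gene of the mesenchyme, fell in both parts (-0.34 and -1.34, difference 0.99, adjusted p = 0.081), and its posterior call was lost trend removed (-0.083) and without control replicate 1 (0.11), control replicate 3 (0.14) or tamoxifen replicate 1 (0.083). The 3 for a more negative effect were Wnt5a, Stard4 and Gfod1, whose values were positive in both parts. Wnt5a had 0.24 posteriorly and 0.84 anteriorly (difference -0.60, SE 0.10, adjusted p = 0.081), and its anterior values were 137, 146 and 130.2 against 244, 251 and 246 CPM. Stard4 had 0.49 and 1.26 (difference -0.76, adjusted p = 0.16), and Gfod1 0.25 and 1.04 (difference -0.79, adjusted p = 0.16). None of the 6 passed the threshold. Among the genes described above, Gli1 and Foxl1 of the Hedgehog pathway fell in both parts: Gli1 had -0.50 posteriorly and -0.77 anteriorly, and Foxl1 -0.60 and -0.59, with adjusted p for the difference of 0.44 and 0.98. Ptch1, another response gene, was higher anteriorly with TMM scaling, at 175, 160 and 119 against 283, 279 and 303 CPM without overlap. Posteriorly Ptch1 had 0.25 without a call. The skeletal muscle list had 6 rises among 29 tested genes posteriorly (20.7%), near the 17.3% of all genes called higher. That count was 1 without posterior tamoxifen replicate 2. Anteriorly the list had 1 rise and 6 falls, or 0 and 3 trend removed, where 49.7% of all genes were called. Chrnd had 0.89 posteriorly and -0.22 anteriorly (adjusted p of the difference 0.33).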

How the data were processed

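The authors deposited 1 table of raw read counts per gene symbol for each of the 12 libraries (total RNA, 3 in each of 4 groups). Per the submitters' processing notes, HISAT2, StringTie and the mouse build mm9 were used. How reads were counted, with which gene models and strand option, is not given in the sources used here.

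All 12 libraries were fitted together in R 4.3.3 with edgeR 4.0.16 (quasi-likelihood test, robust, TMM scaling, filterByExpr, which left 15958 genes) with Benjamini-Hochberg adjustment and a threshold of 0.05. The posterior contrast had 3 against 3 libraries. For the trend, splines of log length and GC content (4 degrees of freedom, genes above a mean log2 CPM of 1) were fitted to each library's deviation and used as offsets. Length and GC came from the longest GENCODE vM21 transcript of each symbol, found for 99.3% of tested genes. That annotation is of another build than the files, so no coordinates were joined. The posterior contrast and the difference between the parts were tested on simulated data.

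Named were the 10 largest rises and falls in each fit (no overlap, mean of at least 5 CPM, predicted genes left out), up to 4 members of each of 48 lists by p, other list members as values, 8 genes of oestrogen response and posterior identity, and 3 genes in each direction for the difference between the parts. The comparison, the lists and these rules were chosen with earlier results of these data known. A few genes that the rules name are counted in their lists but not reported here by name. Alternatives included RLE and upper quartile scaling, DESeq2 1.42.0, limma-voom 3.58.1, other filters, the 6 posterior libraries alone, replicate blocks and leaving out each library.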

Additional observations from a re-analysis of the deposited data

Results flagged for a closer look

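Groups of 3 are too small for a test of single libraries that stand apart. In 52 of the 5979 genes without overlap between treated and control libraries in both parts, all 3 treated libraries lay on one side posteriorly and on the other side anteriorly, and 2 of those are among the genes named here. Cthrc1, a secreted protein of the extracellular matrix, had a posterior log2 fold change of 0.23 (SE 0.075) and an anterior one of -0.45 (SE 0.079), a difference of 0.68. Naaa, a lysosomal amidase, stood at 4.69, 4.37 and 4.60 CPM in posterior controls and 5.74, 5.17 and 5.87 CPM under tamoxifen, and at 14.9, 13.2 and 15.6 against 9.63, 8.80 and 9.18 CPM anteriorly. Its log2 fold changes were 0.30 (adjusted p = 0.071) and -0.66 (adjusted p = 0.00017), a difference of 0.96. The test of the difference by edgeR's interaction term did not pass the threshold for Cthrc1 (adjusted p = 0.081) or for Naaa (adjusted p = 0.081).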

How the results depend on the processing

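The count of called genes depended on single libraries. With 1 posterior library left out, 1737 to 2443 genes were higher and 935 to 1656 lower, against 2762 and 1863 with all. In total 2718 were called without control replicate 1, 2840 without control replicate 3 and 3069 without tamoxifen replicate 1. Leaving out 1 anterior library, chosen after seeing the data, gave 2336 to 2960 higher and 2042 to 2680 lower. Same-numbered libraries of the 2 groups deviated from their group means with correlations of -0.14, -0.14 and -0.042, so the numbers, which also differ from those in the file headers, were not taken as pairs, and a replicate block gave 2721 higher and 1840 lower. Trend removed, 1247 were higher and 1636 lower, 1175 and 1554 with the replicate block, and 1225 and 1603 with a tensor surface chosen after seeing the data. At an adjusted p under 0.01 the counts were 1514 and 701, and at 1.5-fold or more 802 and 241. Upper quartile scaling gave 2483 and 2233, the 6 posterior libraries alone 2950 and 2703, and DESeq2 2992 and 2211 with 934 adjusted p left as NA.

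The difference between the parts gave 83 genes in the positive and 96 in the negative direction with DESeq2, and 1 and 0 with the trend removed and the replicate block. With 1 library left out it gave 0 to 6 positive (6 without anterior tamoxifen replicate 3, 3 without anterior tamoxifen replicate 2) and 0 negative. Genes without a call, such as Meox2 and Col1a1, could turn sign on leaving out 1 library. Named genes that turned sign with a call on either side did so on removal of the trend, given as the additive curve, the curve with the block and the tensor surface: Trps1 -0.041, -0.042 and -0.039, Inhba -0.34, -0.34 and -0.36, Smad5 -0.28, -0.28 and -0.32, Wnt5a -0.10, -0.10 and -0.13, Tug1 -0.13, -0.13 and -0.12, Mki67 -0.28, -0.28 and -0.30, Top2a -0.21, -0.21 and -0.24, Ncor1 -0.0085, -0.0089 and -0.030, and Ncoa3 -0.052, -0.052 and -0.057. Cldn5 came to 0.0047 and 0.0042 by the first 2, and Ptch1 to -0.19 and Pfkp to -0.0092 by the tensor surface alone. The cause was not tested. Of 170 called genes named here, 36 lost their call on removal of the trend and 6 were reversed. At totals of 42217556 to 50163320 counts, genes under 1 CPM, such as Esr1 and Wnt9b, rest on few reads.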

Other observations

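Stress response genes were called in both directions, with TMM scaling in a share below that of all genes. Of 25 genes of the unfolded protein and integrated stress responses 3 rose and 3 fell (24% against 29.0% of all genes tested), or 5 and 2 trend removed. Stress response rises trend removed numbered 2 without control replicate 3 or tamoxifen replicate 3 and 3 without control replicate 1 or 2. Atf4, the transcription factor of the integrated stress response, stood at 168, 195 and 197 CPM in controls and 128, 129.6 and 128 CPM under tamoxifen (log2 fold change -0.54, SE 0.080, adjusted p = 0.00045), and its target Ddit3 at 14.4, 12.8 and 13.4 against 11.5, 8.68 and 9.53 CPM (log2 fold change -0.45, SE 0.11, adjusted p = 0.0079). Both were lower without overlap, and both kept their calls trend removed (-0.34 and -0.38) and with each library left out. Ern1, the sensor kinase of the endoplasmic reticulum, stood at 11.5, 11.3 and 10.9 against 19.01, 19.4 and 17.9 CPM (log2 fold change 0.74, SE 0.12, adjusted p = 0.00086, 0.48 trend removed). Immediate early and heat shock genes had 1 rise among 24, with a median log2 fold change of -0.33, or -0.13 trend removed. In p53 targets and apoptosis 5 of 25 rose and 1 fell (24% against 29.0%), or 3 and 0 trend removed.

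Of 22 lysosome genes 4 rose and 1 fell in each fit, against 17.3% of all genes tested called higher and 7.81% trend removed, with a median log2 fold change of -0.025. Lysosome rises numbered 2 without control replicate 1 or tamoxifen replicate 1, and trend removed 1 without control replicate 1 or 3 and 2 without tamoxifen replicate 1 or 3. Lamp2, Lipa and Gpnmb were higher in both fits, but Lamp2 lost its call without control replicate 1 (0.050) or tamoxifen replicate 1 (0.056) and Gpnmb without control replicate 1 (0.061), control replicate 3 (0.087) or tamoxifen replicate 1 (0.13). Lipa, the acid lipase, stood at 28.96, 30.6 and 27.9 CPM in controls and 42.1, 37.2 and 39.6 CPM under tamoxifen (log2 fold change 0.44, SE 0.075, adjusted p = 0.00086), with 0.26 trend removed, and the groups did not overlap. Npc1, which exports cholesterol from the lysosome, rose 1.33-fold and was not called trend removed (0.11). In fatty acid synthesis and storage 6 of 18 rose and 1 fell, or 2 and 1 trend removed. Acly, which makes cytosolic acetyl-CoA, stood at 306, 339 and 345 against 400.4, 405 and 408 CPM (log2 fold change 0.29, SE 0.070, adjusted p = 0.0065, 0.22 trend removed). Of 13 genes of the anterior shelf 3 rose and 1 fell, or 2 and 2 trend removed, and no rise was called without control replicate 3 or without tamoxifen replicate 2. Nefl, a neurofilament gene, stood at 17.2, 17.9 and 18.8 against 29.9, 22.9 and 26.6 CPM (log2 fold change 0.56, SE 0.13, adjusted p = 0.0066, 0.51 trend removed), and the neuronal nuclear marker Rbfox3 at 2.48, 2.67 and 2.49 against 1.27, 1.45 and 1.36 CPM (log2 fold change -0.91, SE 0.25, adjusted p = 0.014, -0.72 trend removed). With TMM scaling these 2 neuronal markers were called in opposite directions. Trend removed, the neuronal list held 1 rise and 1 fall, so Dcx and Nefl were not both called there. The falls trend removed numbered 0 with any 1 library left out.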
